A study of Mus musculus with 15 samples.

Results

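Heme synthesis was followed through 9 of the 17454 genes in the deposited table: the enzymes *Alas1*, *Alas2*, *Alad*, *Uros*, *Urod*, *Cpox*, *Ppox* and *Fech*, and the mitochondrial carrier *Slc25a38*. They were chosen by their place in the pathway and not by their values, although earlier results of these data were known. The question was whether heme synthesis follows the rise of embryonic globin in Ezh2-deficient erythro-myeloid progenitors (EMPs). The enzyme of the third step is not among the 9 and was not analysed here.

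EMPs were sorted from the yolk sac (YS) of C57BL/6 embryos at E10.5, and each library came from an individual YS. *Ezh2* was floxed on both alleles in every group. *Tie2*-Cre removed it in endothelium, before EMPs emerge (Tie2-Ezh2-KO), *Vav*-iCre removed it in hematopoietic cells (Vav-Ezh2-KO), and floxed embryos without Cre were the wild type (WT) of each line. The labels give 500 cells per library. The number in the methods is smaller.

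Heme is built from glycine and succinyl-CoA. ALA synthase starts the pathway in the mitochondrion, with *Alas1* serving most cells and *Alas2* serving erythroid cells. The middle steps run in the cytosol, and the last steps return to the mitochondrion, where ferrochelatase places iron in the ring. A cell that fills itself with hemoglobin needs a heme for each globin chain, so globin and the enzymes of heme synthesis rise together as red cells mature.

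Replicate numbers from the labels were 4, 10 and 12 for Tie2-Ezh2-WT and 4 and 6 for Vav-Ezh2-WT. For Tie2-Ezh2-KO they were 7, 9, 11, 13 and 17, and for Vav-Ezh2-KO 1, 9, 10, 26 and 28. Values of single libraries are given in these orders, with Tie2-Ezh2-WT ahead of Vav-Ezh2-WT. The libraries held 10407398 to 41025074 reads on genes, with a median of 16091836. Both knockouts were compared with the same 5 WT libraries, so their changes are not independent of each other and are given side by side.

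The labels were checked on the targeted gene. From lowest to highest, *Ezh2* stood at 30.1, 36.9, 39.5, 41.5 and 42.0 RPKM (reads scaled to gene length and library depth) in WT and at 24.8, 26.2, 26.5, 27.8 and 29.5 RPKM in Tie2-Ezh2-KO EMPs. Every Tie2-Ezh2-KO library was below every WT library (two-sided exact permutation test, p = 0.00794, which is the smallest value the design can give). In Vav-Ezh2-KO EMPs the values ran through 33.8, 34.0, 37.8, 38.1 and 42.5 RPKM and overlapped WT (exact permutation p = 0.849). These values cover the whole gene and do not separate the deleted exons, so they cannot show the deletion in the Vav line. The 9 EMP marker genes together reached 320.8 ± 35.2 RPKM (SD, n = 5) in WT. In Tie2-Ezh2-KO EMPs they reached 286.0 ± 48.0 RPKM (SD, n = 5), and in Vav-Ezh2-KO EMPs 341.6 ± 66.7 RPKM (SD, n = 5).

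EMPs without any deletion already carried the messages of all 9 members, and the erythroid form of the first enzyme was the scarce one. RPKM corrects for gene length, so the levels of different genes can be set beside each other as far as the length used for each gene is apt. By the deposited values *Urod*, which trims the side chains of the first closed ring, was the most abundant member at 101.9 ± 9.23 RPKM (SD, n = 5), higher than 90.4% of the 13100 genes above 0.2 RPKM in at least 1 WT library. *Fech*, the ferrochelatase, followed at 73.3 ± 15.7 RPKM (SD, n = 5), then *Alad*, which joins 2 molecules of ALA, at 39.9 ± 5.13 RPKM (SD, n = 5) and *Slc25a38*, which carries glycine into the mitochondrion, at 37.3 ± 2.64 RPKM (SD, n = 5). *Alas1*, *Ppox*, *Uros* and *Cpox* had means of 22.8, 20.9, 20.4 and 20.2 RPKM. *Alas2* had a mean of 1.24 ± 0.65 RPKM (SD, n = 5), above 28.1% of the same genes.

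Part of this order was the same in every embryo. *Urod* was above *Fech*, *Fech* above *Alad*, *Slc25a38* above *Alas1* and *Cpox* above *Alas2* in 15 of 15 libraries. The members between were not set apart: *Alad* was above *Slc25a38* in 11, *Alas1* above *Ppox* in 10, *Ppox* above *Uros* in 10 and *Uros* above *Cpox* in 7 of 15. *Alas2* made up 12.9%, 7.02%, 5.18%, 2.64% and 1.83% of the summed *Alas1* and *Alas2* signal in the WT libraries, so the housekeeping form dominated in all of them. The genes also differed in how steady they were, with a coefficient of variation over the 15 libraries of 10.3% for *Urod*, 19.2% for *Alad*, 19.8% for *Alas1*, 24.5% for *Uros* and 59.7% for *Alas2*. *Alas2* rested on 6 to 113 reads per library and the other members on 308 to 9130. The length used to count *Alad* was 4601 bases against 1206 to 1247 bases for its coding transcripts in GENCODE, which lowers its RPKM relative to the other members and leaves its changes as they are. If all its reads came from those transcripts, its WT mean would be 147.2 to 152.2 RPKM, and that of *Urod* over its own transcript 82.0 RPKM, so the order of *Urod*, *Fech* and *Alad* turns with the length used. *Alas2* is the lowest by either length.

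**Figure D1:**
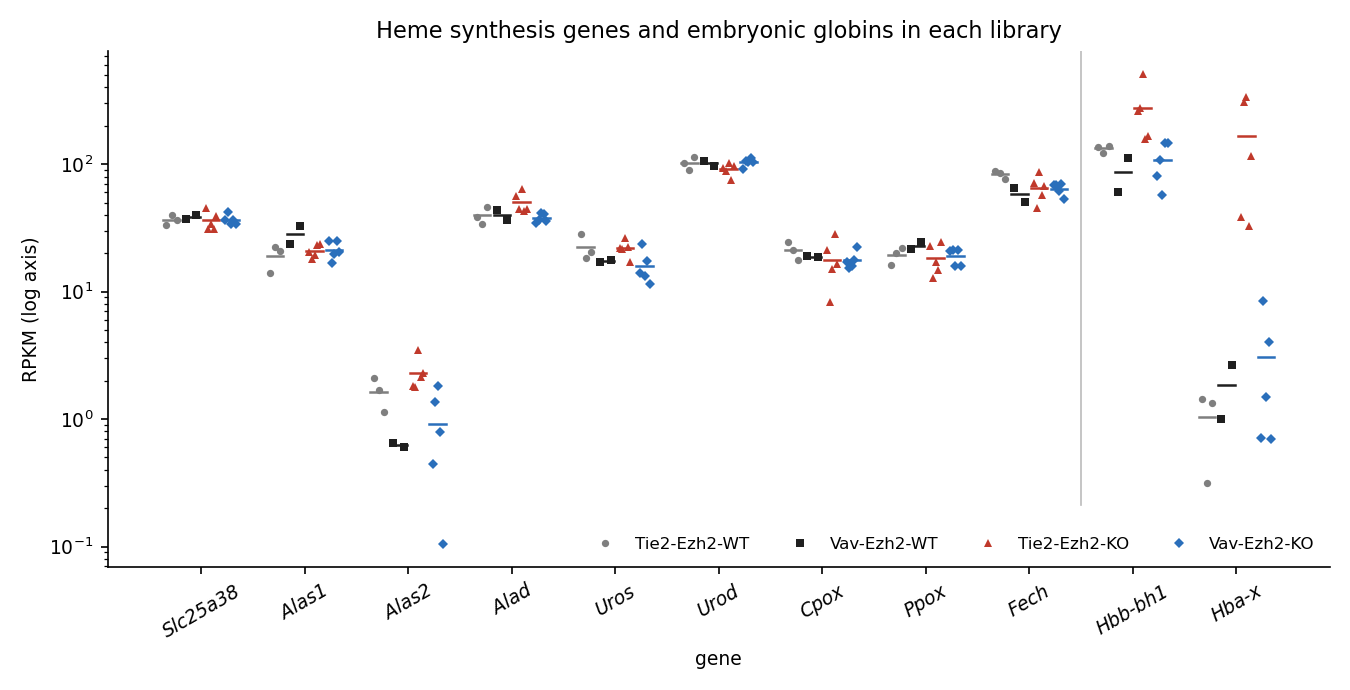
RPKM on a log axis of the 9 heme synthesis genes and of the embryonic globins *Hbb-bh1* and *Hba-x*. Each point is a library, colored by its group (each WT line apart), and lines are group means: *Hba-x* was at most 2.67 RPKM in WT and at least 32.9 RPKM in Tie2-Ezh2-KO EMPs, while the heme genes overlapped between WT and knockouts.

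Loss of Ezh2 in endothelium left EMPs with a strong rise of embryonic globin and no rise of the heme genes that passed the test. The zeta-like globin *Hba-x* and the beta-like globin *Hbb-bh1* rose. None of the 9 genes that supply their heme was called, where 2.73% of all genes were. At that share 9 genes may well hold none, so the count alone decides nothing. The members nearest to a rise were the erythroid ALA synthase and the enzyme that takes up its product. The enzymes of the later steps lay slightly under the pooled WT, most of them, though not *Urod*, largely through 1 embryo. With only the Tie2-Ezh2-WT libraries as controls the log2 change was -0.381 for *Fech*, -0.341 for *Cpox*, -0.165 for *Urod* and -0.115 for *Ppox*.

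The globins set the scale for this comparison. *Hba-x* rose by 6.33 on the log2 scale of RPKM + 0.2 (limma, adjusted p = 8.88e-05), and *Hbb-bh1* by 1.18 (limma, adjusted p = 0.0441). The *Hba-x* values in Tie2-Ezh2-KO EMPs were 38.4, 305.4, 338.8, 32.9 and 116.8 RPKM, against at most 2.67 RPKM in any WT library. *Hbb-bh1* had 136.6, 123.4, 138.9, 60.1 and 112.0 RPKM in WT and 262.0, 276.5, 507.8, 157.7 and 165.0 RPKM in Tie2-Ezh2-KO EMPs. All 5 knockout libraries were above all WT libraries for both genes (exact permutation p = 0.00794 for each). The third embryonic globin, *Hbb-y*, had means of 2.50 ± 1.19 RPKM (SD, n = 5) in WT and, in Tie2-Ezh2-KO EMPs, 4.75 ± 3.55 RPKM (SD, n = 5), with overlapping libraries (limma, adjusted p = 0.779).

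The 3 embryonic globins summed to 118.0 ± 31.1 RPKM (SD, n = 5) in WT and, in Tie2-Ezh2-KO EMPs, to 445.0 ± 272 RPKM (SD, n = 5). Of 6 adult globins listed, 2 were in the table, *Hbb-b1* and *Hbb-b2*, at no more than 0.1131 RPKM together, and adult alpha globin was not analysed here. The rise of *Hba-x* lost its call only with limma-voom on recovered reads (adjusted p = 0.0833). That of *Hbb-bh1* stood close to the threshold. It lost its call when any 1 WT library or Tie2-Ezh2-KO 7, 9 or 11 was left out (adjusted p = 0.0535 to 0.101), and in 6 other settings, with an adjusted p of at most 0.246. The exact permutation test of *Hbb-bh1* does not rest on that threshold, as its groups did not overlap.

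Among the heme genes, 0 of 9 passed the test, where 386 of 14154 genes (2.73%) did (limma), so this count is not set apart from all genes. An unadjusted limma p under 0.05 was reached by 2 of the 9, *Alas2* and *Alad*, and by 1552 of the 14154 genes. The share was thus higher among the members, but it rests on 2 genes and the difference was not tested. The alternative fit with limma-voom also called 0 of 9. No member had groups that did not overlap (0 of 9), as 567 genes (4.01%) had. The median change was -0.08 over the members and 0.01 over all genes, with 3 members higher and 6 lower in Tie2-Ezh2-KO EMPs. The p-values measure the spread between libraries, each an individual YS.

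*Alas2*, the erythroid entry to the pathway, had the largest change of the 9. It was at 2.09, 1.69, 1.15, 0.645 and 0.608 RPKM in WT and at 1.81, 1.79, 3.51, 2.13 and 2.29 RPKM in Tie2-Ezh2-KO EMPs. All 5 Tie2-Ezh2-KO libraries were above the WT mean and 3 of them above every WT library, so the groups overlapped. The change was 0.89 (standard error 0.34, 95% interval 0.17 to 1.61; limma p = 0.0191, adjusted p = 0.27; exact permutation p = 0.0317). It is a 1.85-fold difference in a gene that stayed scarce, with *Alas2* at 9.93 ± 2.97% (SD, n = 5) of the ALA synthase signal in Tie2-Ezh2-KO and 5.91 ± 4.41% (SD, n = 5) in WT EMPs. With only the 3 Tie2-Ezh2-WT libraries as controls the change was 0.44 (limma, adjusted p = 1.0), and with a pseudocount of 1 it was 0.589.

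*Alas1*, the housekeeping entry, showed no such lean. WT libraries had 14.1, 22.4, 21.0, 23.7 and 32.6 RPKM and Tie2-Ezh2-KO libraries 20.4, 17.9, 19.5, 23.3 and 23.6 RPKM. Every Tie2-Ezh2-KO value lay inside the WT range (change -0.08; limma, adjusted p = 0.957). The lowest and the highest of the 10 values were both WT, and the direction turned to 0.06 when Vav-Ezh2-WT 6 was left out and to 0.15 when only the Tie2-Ezh2-WT libraries were controls.

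*Alad*, the second step, was the other member above the WT mean in all 5 Tie2-Ezh2-KO libraries. Its values were 38.8, 34.1, 46.4, 43.9 and 36.4 RPKM in WT and 56.6, 44.4, 63.8, 43.0 and 44.4 RPKM in Tie2-Ezh2-KO EMPs. Replicates 7 and 11 exceeded every WT library and the other 3 fell among the upper WT values. The change was 0.33 (95% interval 0.04 to 0.62; limma p = 0.0305, adjusted p = 0.351; exact permutation p = 0.0635). *Uros*, which closes the ring, had 28.2, 18.4, 20.5, 17.1 and 17.9 RPKM in WT and 22.2, 21.6, 26.6, 22.6 and 16.9 RPKM in Tie2-Ezh2-KO EMPs. Its groups overlapped (change 0.12; limma, adjusted p = 0.914), and the change was -0.02 when only the Tie2-Ezh2-WT libraries were controls. It was 0.238 without Tie2-Ezh2-WT 4, 0.0583 and 0.0749 without Vav-Ezh2-WT 4 or 6, and 0.0443 and 0.205 without Tie2-Ezh2-KO 11 or 17.

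Against the pooled WT libraries the later enzymes leaned downward without passing the test, and for most of them the lean rested on Tie2-Ezh2-KO 9. *Urod* had 101.9, 89.6, 114.0, 106.6 and 97.2 RPKM in WT and 93.4, 88.2, 102.0, 74.5 and 96.6 RPKM in Tie2-Ezh2-KO EMPs, with 1 of the 5 knockout libraries above the WT mean. Its change was -0.17 (limma, adjusted p = 0.713; exact permutation p = 0.111), and replicates 9 and 13 were below every WT library. Without replicate 13 it was -0.0973. *Cpox*, the first enzyme on the way back into the mitochondrion, had 24.7, 21.1, 17.7, 19.1 and 18.7 RPKM in WT and 21.2, 8.28, 14.9, 28.4 and 16.4 RPKM in Tie2-Ezh2-KO EMPs. Here 3 knockout libraries were below and 1 was above the whole WT range (change -0.28; limma, adjusted p = 0.85). The change was -0.0367 without replicate 9 and -0.475 without replicate 13.

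*Fech*, which places the iron, had 88.8, 85.5, 76.7, 65.1 and 50.6 RPKM in WT and 71.1, 45.6, 86.0, 57.0 and 67.9 RPKM in Tie2-Ezh2-KO EMPs. Only replicate 9 was below the WT range, and only replicate 11 was above the WT mean (change -0.17; limma, adjusted p = 0.888). The change was -0.043 without replicate 9, -0.272 without replicate 11, -0.292 without Vav-Ezh2-WT 6, -0.0894 and -0.103 without Tie2-Ezh2-WT 4 or 10, and -0.381 with only the Tie2-Ezh2-WT libraries as controls. *Ppox*, the oxidase just before it, went from 20.9 ± 3.0 RPKM (SD, n = 5) to 18.4 ± 5.11 RPKM (SD, n = 5; change -0.21; limma, adjusted p = 0.843). It changed by -0.0935 without replicate 9, by -0.325 without replicate 17 and by -0.115 with only the Tie2-Ezh2-WT libraries as controls. *Slc25a38* went from 37.3 to 36.2 ± 6.12 RPKM (SD, n = 5; change -0.06; limma, adjusted p = 0.957), and its change ran from -0.141 without replicate 7 to -0.0041 without replicate 9. A single embryo was low in the last enzymes and in the glycine carrier: Tie2-Ezh2-KO 9 had the lowest value of all 15 libraries for *Cpox*, *Ppox*, *Fech* and *Slc25a38*, although its *Hba-x* was the second highest. The share of all genes that were lowest in this library was not counted. Its EMP marker sum, 209.3 RPKM, was also the lowest of the 15. Without it the median change over all genes went from 0.0107 to 0.0405. Whether its low values are particular to heme genes was not tested.

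The size of the gap to globin can be read from the intervals. For 9 of 9 members the upper end of the 95% interval was below the lower end for *Hba-x*, 5.01. For 7 of 9, all but *Alas2* and *Alad*, it was also below the lower end for *Hbb-bh1*, 0.56. A rise of the other members as large as that of *Hbb-bh1* was thus outside their intervals, whereas *Alas2*, with an upper end of 1.61, could have changed as much as *Hbb-bh1*.

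**Figure D2:**
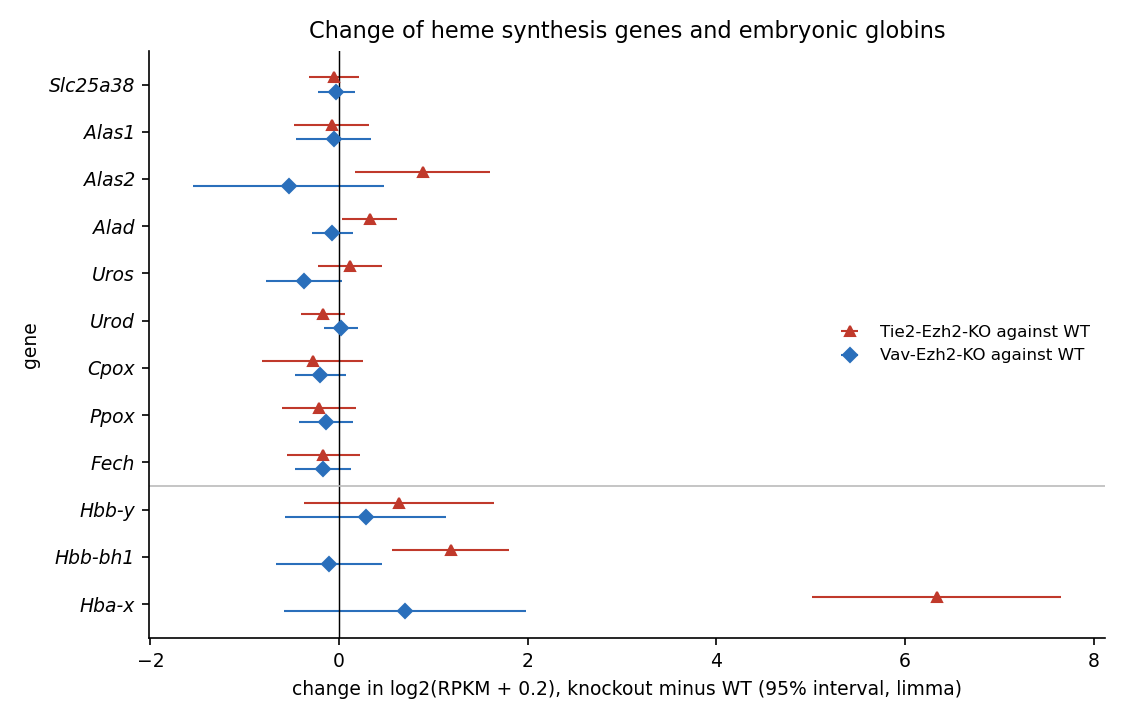
Change in log2(RPKM + 0.2) of each heme gene and embryonic globin against the 5 WT libraries, in Tie2-Ezh2-KO and in Vav-Ezh2-KO EMPs. Points are limma estimates and bars are 95% intervals: *Alas2* was at 0.89 and *Alad* at 0.33 in Tie2-Ezh2-KO EMPs, far below *Hba-x* at 6.33.

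Globin and enzyme were also compared inside each library, a test chosen after seeing the data. The log2 value of each enzyme was taken from that of the globin, and the 5 Tie2-Ezh2-KO libraries were set against the 5 WT libraries. *Hbb-bh1* outran *Alad* by 0.86, *Uros* by 1.07, *Slc25a38* by 1.24, *Urod* by 1.35 and *Fech* by 1.35, without overlap (exact permutation p = 0.00794 for each). It outran *Alas1* by 1.26, *Ppox* by 1.40 and *Cpox* by 1.46, with 3, 4 and 4 of 5 knockout libraries above all WT libraries (exact permutation p = 0.0397, 0.0159 and 0.0317). The excess over *Alas2* was the smallest, 0.30 (exact permutation p = 0.349), with 1 of 5 libraries above. The groups of *Hbb-bh1* were apart by themselves, and that separation enters each of these values. A gene that did not change could give the same p, so these p-values do not test the enzymes apart from the globin. The comparison was not run over all genes, and the values are given as sizes. With only the Tie2-Ezh2-WT libraries as controls the excess over *Alad* was 0.57 (exact permutation p = 0.107), and over *Alas2* 0.47 (p = 0.161).

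In 1 embryo the most globin went with the most *Alas2* and *Alad*. Tie2-Ezh2-KO 11 had the highest embryonic globin sum of all libraries, 854.9 RPKM, and the highest *Alas2* and *Alad*. Replicate 9, next in globin at 585.3 RPKM, had 1.79 RPKM of *Alas2*, the lowest of its group. Against the mean of the 5 WT libraries *Alas2* stood higher by 0.61, 0.59, 1.49, 0.82 and 0.92 on the log2 scale, where the median over the 9 members was 0.14, -0.26, 0.01, 0.08 and 0.07. The low Vav-Ezh2-WT libraries pull that mean down, and *Alas2* was also the member furthest above it in Vav-Ezh2-KO 9 and 10. Fewer cells of a type and less RNA per cell cannot be told apart in sorted populations.

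Deletion of Ezh2 at the hematopoietic stage was not followed by a rise of globin or of heme genes that passed the test. Most members sat slightly under their WT means, and *Alas2* varied widely from embryo to embryo.

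In Vav-Ezh2-KO EMPs 0 of 9 members passed the test, where 1 of 13646 genes (0.00733%) did (limma). No member had an unadjusted limma p under 0.05, against 1082 genes (7.93%), and limma-voom also called 0 of 9. Groups that did not overlap were found for 0 of 9 members and for 192 genes (1.41%). The median change was -0.14 over the members and -0.02 over all genes, with 1 member higher and 8 lower, and 0 to 3 higher over the alternatives. *Hba-x* changed by 0.70 (limma, adjusted p = 0.799), and by 0.20 without Vav-Ezh2-KO 9, 0.459 without Vav-Ezh2-KO 26, 0.350 without Tie2-Ezh2-WT 10 and 0.236 with only the Vav-Ezh2-WT libraries as controls. *Hbb-bh1* changed by -0.11 (limma, adjusted p = 0.939), whose sign turned without Vav-Ezh2-KO 10 (0.0991) and with only the Vav-Ezh2-WT libraries as controls (0.31). The embryonic globins summed to 114.5 ± 41.6 RPKM (SD, n = 5) against 118.0 RPKM in WT.

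*Alas2* had 0.447, 1.37, 1.83, 0.790 and 0.106 RPKM in Vav-Ezh2-KO EMPs. Replicates 9, 10 and 26 lay within the WT range, and replicate 28 had the lowest *Alas2* of all 15 libraries, the only value under 0.2 RPKM. The change was -0.53 (95% interval -1.55 to 0.48; limma, adjusted p = 0.807), and it was 0.14 with only the Vav-Ezh2-WT libraries as controls. It was -0.141 without replicate 28, -0.823 without replicate 10, -0.335 without Tie2-Ezh2-WT 4, -0.259 with a pseudocount of 1 and -0.995 with limma-voom. *Uros* leaned down in the same embryo, with 13.9, 23.6, 13.4, 17.4 and 11.5 RPKM and its lowest value of the 15 libraries in replicate 28. Of these, 3 were below every WT library (change -0.37; limma, adjusted p = 0.657; exact permutation p = 0.135), and the change was -0.174 with only the Vav-Ezh2-WT libraries as controls.

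*Alas1* had 24.8, 16.7, 19.7, 24.8 and 20.6 RPKM, all inside the WT range (change -0.06; limma, adjusted p = 0.954), and the sign turned without Vav-Ezh2-WT 6 (0.08) or Vav-Ezh2-KO 9 (0.0246). With only the Vav-Ezh2-WT libraries as controls the change was -0.396. *Alad* had 34.6, 36.8, 41.2, 40.6 and 36.1 RPKM, tightly set among the WT values (change -0.07; limma, adjusted p = 0.887), with a change of -0.124 without Tie2-Ezh2-WT 10 and -0.0134 without Tie2-Ezh2-WT 12. *Urod* was the 1 member above WT, with means of 103.1 ± 7.37 RPKM (SD, n = 5) against 101.9 RPKM (change 0.02; limma, adjusted p = 0.969). Its sign turned with limma-voom (-0.0015), without Tie2-Ezh2-WT 10 (-0.0261) and without Vav-Ezh2-KO 26 (-0.01). *Fech* had 68.0, 68.9, 61.7, 69.3 and 53.2 RPKM, within the WT range (change -0.17; limma, adjusted p = 0.792). Its change was 0.16 with only the Vav-Ezh2-WT libraries as controls, and from -0.295 without Vav-Ezh2-WT 6 to -0.0924 without Tie2-Ezh2-WT 4. *Cpox*, *Ppox* and *Slc25a38* changed by -0.20, -0.14 and -0.03, with adjusted limma p of 0.712, 0.829 and 0.951. Without Tie2-Ezh2-WT 4 *Cpox* changed by -0.124 and *Ppox* by -0.224, and with only the Vav-Ezh2-WT libraries as controls by -0.108 and -0.284. *Ppox* was at -0.079 without Vav-Ezh2-WT 6 and at -0.0765 and -0.077 without Vav-Ezh2-KO 10 or 28.

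The effects of the knockouts were then compared with each other, each against the WT of its own line. Of the embryonic globins only *Hba-x* passed, with a difference of 6.41 between the lines (limma, adjusted p = 0.0457), a call lost in 18 of 24 alternatives. *Hbb-bh1* differed by 0.60 (limma, adjusted p = 0.978) and *Hbb-y* by 1.45 (adjusted p = 0.871). Of the 9 members, 0 differed, where 26 of 14394 genes (0.181%) did (limma). *Fech* alone had an unadjusted limma p under 0.05 (adjusted p = 0.739), against 942 genes (6.54%), and limma-voom also called 0 of 9.

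The *Fech* difference was -0.54 (95% interval -1.06 to -0.01), opposite in sign to globin, and it was 0.003 when the knockouts were compared directly. *Alas1* differed by 0.54 in the other direction (limma, adjusted p = 0.791), and by -0.02 when compared directly. *Alad* differed by 0.42 (limma, adjusted p = 0.826) and *Alas2* by 0.30 (standard error 0.72; adjusted p = 0.991), which ran from -0.10 without Vav-Ezh2-KO 28 to 0.59 without Vav-Ezh2-KO 10. Compared directly, the knockouts differed by 1.42 in *Alas2* and by 0.397 in *Alad*, each with an adjusted limma p of 0.0788. The median difference was 0.16 over the members and 0.06 over all genes, with 6 members higher and 3 lower.

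The WT lines were also set against each other, a comparison chosen after seeing the data and read by the exact permutation test alone. *Alas2* was higher in Tie2-Ezh2-WT than in Vav-Ezh2-WT EMPs (1.64 against 0.626 RPKM), as were *Fech* (83.7 against 57.8 RPKM) and *Uros* (22.4 against 17.5 RPKM), whereas *Alas1* was lower (19.2 against 28.2 RPKM). None of these values overlapped, which held for 4 of 9 members and for 3403 of 13100 genes (26%). With 3 against 2 libraries the smallest exact permutation p is 0.1, so none could pass this test. The embryonic globins did not run one way: *Hbb-bh1* was higher in Tie2-Ezh2-WT EMPs (132.9 against 86.0 RPKM), and *Hbb-y* (1.66 against 3.76 RPKM) and *Hba-x* (1.03 against 1.84 RPKM) were lower.

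If heme synthesis followed globin, embryos with more globin than others of their group should have had more of the enzymes. The members were therefore fitted against the log2 of the summed embryonic globins within groups, over all 15 libraries. Of the members 0 of 9 passed, and 0 of 14389 genes did (0%; limma). An unadjusted limma p under 0.05 was found for none of the members and for 626 genes (4.35%). The power of this fit was not measured, and the slopes are given as sizes only.

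For each doubling of globin, *Alas2* changed by -0.16 (95% interval -0.80 to 0.48), *Alad* by 0.09, *Urod* by 0.11, *Uros* by 0.14 and *Cpox* by -0.29 (95% interval -0.62 to 0.04; limma, adjusted p = 0.964). *Alas1*, *Ppox*, *Fech* and *Slc25a38* had slopes of -0.05, -0.03, 0.02 and -0.01. The median slope was -0.01 over the members and -0.03 over all genes. The sign for *Alas2* turned without Vav-Ezh2-KO 10 (0.11) or Vav-Ezh2-KO 28 (0.04), and with *Hba-x* alone in place of the sum (0.23). The sign for *Alad* turned without Tie2-Ezh2-KO 11 (-0.03). The slope of *Urod* was 0.0446 without Tie2-Ezh2-KO 13 and that of *Uros* 0.0889 without Tie2-Ezh2-KO 11. The slope of *Cpox* was -0.149 without Tie2-Ezh2-KO 9 and -0.116 without Tie2-Ezh2-KO 13.

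**Figure D3:**
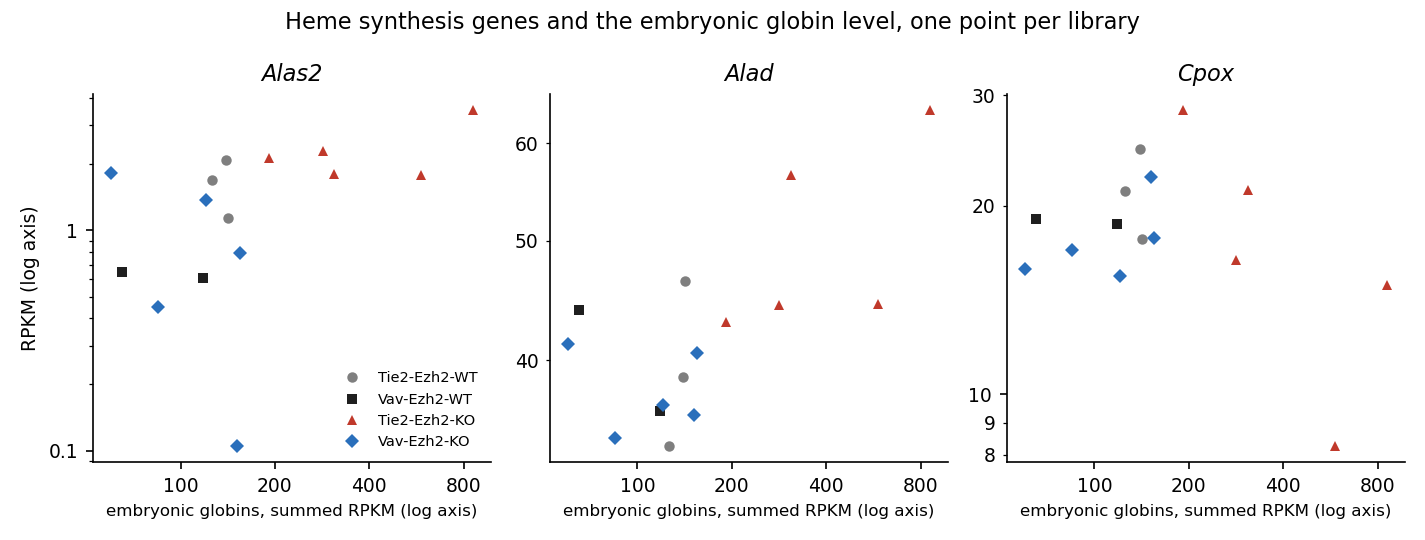
RPKM of *Alas2*, *Alad* and *Cpox* against the summed RPKM of the 3 embryonic globins, both on log axes, with each library as a point colored by group. Tie2-Ezh2-KO libraries lie to the right, at 192.1 to 854.9 RPKM of globin, and overlap WT in the height of all 3 genes.

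Genes that serve heme outside the 9 were counted beside the 2.73% of all genes called in Tie2-Ezh2-KO EMPs. Of 17 genes of heme transport, turnover and sensing, 0 passed in Tie2-Ezh2-KO EMPs (median change 0.04). *Tmem14c*, which moves protoporphyrinogen toward its last steps, had the largest amount of RNA and went from 379.9 to 281.5 RPKM (change -0.46; limma, adjusted p = 0.118). Iron supply gave 0 of 30, with a median of -0.02, and its most abundant gene, *Ftl1*, went from 3623 to 3592 RPKM. The supply of glycine and succinyl-CoA gave 0 of 13 besides *Slc25a38*, with a median of 0.06, and *Phgdh* went from 501.2 to 449.0 RPKM. Erythroid regulators gave 0 of 17 (median -0.07), with the lowest adjusted p at *Epor*, the erythropoietin receptor, which went from 21.3 to 30.1 RPKM (change 0.50; limma, adjusted p = 0.074).

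The 27 genes of the red cell membrane and late maturation summed to 1104 ± 89.8 RPKM (SD, n = 5) in WT and, in Tie2-Ezh2-KO EMPs, to 1093 ± 102 RPKM (SD, n = 5). Of the 26 tested 2 rose, where 2.73% of all genes were called. *Rhd* went from 1.86 to 6.82 RPKM (change 1.95; limma, adjusted p = 0.0214). *Cldn13* went from 0.799 to 3.63 RPKM (change 2.38; limma, adjusted p = 0.0442), and its change was 1.42 with a pseudocount of 1. Of the 26, 18 were higher (median 0.14), among them *Slc4a1*, which was at 0 RPKM in WT and could not be lower. The *Rhd* call was lost without Tie2-Ezh2-KO 7 or 11 (adjusted p = 0.0606 to 0.0653), and with no filter, without the eBayes trend and with limma-voom (up to 0.072). That of *Cldn13* was lost without Tie2-Ezh2-WT 10, without either Vav-Ezh2-WT library, or without Tie2-Ezh2-KO 7, 9, 11 or 17 (adjusted p = 0.0654 to 0.116), and in 8 other settings (up to 0.195). *Hbq1a* and *Hbq1b* are near-identical theta globin copies of the alpha-like cluster that holds *Hba-x*, and they could share reads. *Hbq1b* rose by 3.79 (limma, adjusted p = 9.68e-05). *Hbq1a* was higher by 2.36, but it passed the filter only through Tie2-Ezh2-KO libraries, so its test decides nothing. Their WT means were close to 0, so the sizes depend on the pseudocount: 0.938 and 2.03 with a pseudocount of 1, and 3.93 for *Hbq1a* with 0.05.

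Genes of other cell types were read as a description of what was sorted, beside the same 2.73% of all genes called. EMP markers had 0 of 9 called and a median of -0.22, and endothelial markers 0 of 13 and 0.36, with 10 of the 13 higher. The endothelial sums were 171.9 ± 13.3 RPKM (SD, n = 5) in WT and, in Tie2-Ezh2-KO EMPs, 173.5 ± 9.38 RPKM (SD, n = 5). Most of each sum came from *Egfl7*, which went from 119.4 to 117.6 RPKM. Primitive erythroid markers had 2 of 9 called, both globins, and the other 6 summed to 23.9 ± 8.29 RPKM (SD, n = 5) in WT and, in Tie2-Ezh2-KO EMPs, to 25.2 ± 6.16 RPKM (SD, n = 5). Visceral endoderm markers had 1 of 12 called, *Amn* (change 3.01; limma, adjusted p = 0.00155), and all 12 were higher. Of these, *Cubn* and *Foxa2* exceeded 0.2 RPKM only in Tie2-Ezh2-KO libraries, so their direction was set by the filter. The change of *Amn* was 1.51 with a pseudocount of 1 and 5.78 with limma-voom. The visceral endoderm sums were uneven: 266.7, 25.7, 28.4, 24.8 and 32.5 RPKM in WT and 375.8, 47.5, 31.8, 29.6 and 43.0 RPKM in Tie2-Ezh2-KO EMPs, with 1 high library in each group.

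Against the same 2.73% of all genes, macrophage markers had 0 of 8 and mast cell markers 0 of 4 called, with medians of -0.18 and 0.35. The mast cell median rests on genes near 0, and the only abundant one, *Cpa3*, went the other way, from 53.6 to 22.6 RPKM (change -1.25; limma, adjusted p = 0.109). Megakaryocyte markers had 1 of 10, *Gp1ba*, which fell by 0.94 (limma, adjusted p = 0.0495). Neutrophil markers went both ways, with 3 higher and 4 lower (median -0.15). Among the higher were *S100a8* and *S100a9*, at 0 RPKM in WT. Called were 2 of 7, *Mpo* and *Elane*, which fell by 0.75 and 2.20 (limma, adjusted p = 0.0414 and 0.0261). These falls were close to the threshold. With a library left out, *Gp1ba* lost its call in all fits but those without Tie2-Ezh2-WT 12 or Tie2-Ezh2-KO 13 (adjusted p up to 0.146). *Mpo* lost it without Tie2-Ezh2-WT 10, either Vav-Ezh2-WT library or Tie2-Ezh2-KO 7, 9 or 13 (up to 0.117), and *Elane* without Tie2-Ezh2-WT 10 or 12, Vav-Ezh2-WT 4 or Tie2-Ezh2-KO 7 or 13 (up to 0.0747). Other settings, the corresponding WT libraries only among them, ended the call of *Gp1ba* 6 times, of *Mpo* 7 times and of *Elane* 3 times (adjusted p up to 0.231, 0.312 and 0.17). In Vav-Ezh2-KO EMPs 0 genes of any of these lists passed, where 0.00733% of all genes did. The visceral endoderm markers were lower in 10 of 10 (median -0.93). Their WT values include Tie2-Ezh2-WT 4, which stood far above the other WT libraries at 266.7 RPKM summed.

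The promoters of the genes at the center of the comparison were read for the sites of erythroid factors. A GATA site was taken as AGATAA or as TGATAA, and a CACCC site as CACACCC or as CGCACCC, on either strand, in the 250 bases upstream of each transcript start in RefSeq GRCm38.p6. GATA sites occur in 16.6% and CACCC sites in 9.98% of 32851 such windows, so a match is a description and not evidence of binding. Of the 8 members with a window, 3 had a GATA site (*Alas2*, *Uros* and *Cpox*) and 2 a CACCC site (*Alas1* and *Cpox*). These counts are of members and not of windows, so they are not set against those shares. *Alas1*, *Alad* and *Uros* had more than 1 window, and *Alas1* and *Uros* had their site in only 1. *Alas2* and *Hba-x* are given because they are the erythroid entry to heme and the globin that rose most, and *Cpox* because it alone had both sites. The windows, all on the plus strand of GRCm38, are chrX:150547167-150547416 for *Alas2*, chr11:32276350-32276599 for *Hba-x* and chr16:58669958-58670207 for *Cpox*, with sites in capitals.
Alas2: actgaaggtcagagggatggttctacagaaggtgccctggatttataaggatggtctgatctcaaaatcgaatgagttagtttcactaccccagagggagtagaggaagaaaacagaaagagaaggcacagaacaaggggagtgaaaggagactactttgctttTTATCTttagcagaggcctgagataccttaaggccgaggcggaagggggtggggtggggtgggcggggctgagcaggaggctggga
Hba-x: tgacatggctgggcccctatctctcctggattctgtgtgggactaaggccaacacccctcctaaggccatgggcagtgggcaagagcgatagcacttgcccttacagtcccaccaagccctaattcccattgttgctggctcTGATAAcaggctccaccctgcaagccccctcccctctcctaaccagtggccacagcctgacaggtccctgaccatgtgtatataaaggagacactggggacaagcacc
Cpox: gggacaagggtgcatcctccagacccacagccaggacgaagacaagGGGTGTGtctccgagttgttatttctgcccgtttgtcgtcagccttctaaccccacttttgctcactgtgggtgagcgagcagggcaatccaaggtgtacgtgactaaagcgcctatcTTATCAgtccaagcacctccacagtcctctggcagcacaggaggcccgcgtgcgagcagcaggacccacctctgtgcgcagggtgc
*Alas2* has TTATCT, the form of a GATA site read on the other strand, starting 86 bases upstream, and *Hba-x* has TGATAA starting 108 bases upstream. By the forms searched for, *Alas2* and *Hba-x* each had 1 GATA site and no CACCC site in this window. Other forms, such as CCACCC, were not counted and do occur in both windows, in *Alas2* on the other strand. The changes of *Alas2* and *Hba-x* in Tie2-Ezh2-KO EMPs were 0.89 and 6.33. *Cpox*, with TTATCA as its GATA site and GGGTGTG as its CACCC site, both on the other strand, changed by -0.28. Any link between these sites and the changes was not tested.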

How the data were processed

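The authors aligned reads to GRCm38 with TopHat2 2.0.13, keeping 1 alignment per read, counted them with featureCounts and deposited RPKM, per their processing notes. The library kit was unstranded, so reads of genes that overlap on opposite strands may be shared or dropped. Among the members this concerns *Alas2* with *Apex2*, *Uros* with *Bccip*, *Cpox* with *Gpr15* and *Ppox* with *B4galt3*. Whole reads were recovered from the RPKM steps (tolerance 0.01; 16877 genes whole in every library; at least 99.995% of each total). limma 3.58.1 in R 4.3.3 (lmFit, eBayes with trend) was run on log2(RPKM + 0.2), for genes that exceeded 0.2 RPKM in some library of the comparison. P-values were adjusted over all of them (Benjamini-Hochberg), with a threshold of 0.05. DESeq2, which the authors applied to counts, was not run here. The recovered reads were fitted with limma-voom as an alternative. Exact permutation tests and summaries used Python 3.11.15, numpy 2.4.6, scipy 1.17.1 and pandas 2.3.3. The 3 independent experiments are not assigned to libraries, so no batch term was used.

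Members and lists were chosen with earlier results of these data known. The lists were embryonic, other and adult globins, heme transport, turnover and sensing, iron supply, substrate supply, erythroid regulators, late erythroid genes, and markers of EMPs, primitive erythroid cells, endothelium, visceral endoderm, macrophages, megakaryocytes, neutrophils and mast cells. Genes of a list are named when called, most abundant or lowest in adjusted p, or where WT values at or near 0 set their direction. Alternatives were pseudocounts of 1 and 0.05, a stricter filter or none, quantile normalization, scaling to a common median, eBayes without trend, limma-voom on recovered reads, the corresponding WT libraries only, all 15 libraries in one fit, and leaving out each library in turn. The code was tested on simulated data.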

Additional observations from a re-analysis of the deposited data

Results flagged for a closer look

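The effects of the 2 knockouts on *Hba-x*, each against the WT of its own line, differed by 6.41 on the log2 scale (limma, adjusted p = 0.0457). The size was 5.57 to 7.03 over all alternatives. The call was lost in 18 of 24 alternatives, 11 of them fits with a library left out, with an adjusted p of 0.0515 to 0.735 where it was lost. A library far from the others of its group was searched for in 36 groups of values of the heme genes and embryonic globins, and none was found, where chance gives about 1 in 20.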

How the results depend on the processing

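In every alternative 0 of 9 heme genes were called in each comparison. In Tie2-Ezh2-KO EMPs the change of *Alas2* was 0.71 to 1.09 and that of *Alad* 0.24 to 0.38 with a library left out, *Alas1* ran from -0.24 to 0.063 and was 0.15 with the corresponding WT only, and *Uros* was then -0.0157. *Cpox* ran from -0.475 to -0.0367, *Ppox* from -0.325 to -0.0935 and *Fech* from -0.292 to -0.043, each nearest 0 without Tie2-Ezh2-KO 9. In Vav-Ezh2-KO EMPs the corresponding WT gave *Alas1* -0.396, *Alas2* 0.14, *Fech* 0.16, *Hbb-bh1* 0.31 and *Hbb-y* -0.37. *Urod* was -0.0015 with limma-voom, and *Slc25a38* was 0.0005 after quantile normalization and 0.0134 after median scaling. With a library left out *Alas1* ran from -0.22 to 0.0832, *Urod* from -0.0261 to 0.0621 and *Hbb-bh1* from -0.32 to 0.10. For the difference between effects, comparing the knockouts directly gave *Alas1* -0.0202, *Fech* 0.003, *Alas2* 1.42 and *Alad* 0.397, and leaving libraries out gave *Alas2* -0.10 to 0.59. The slope on globin ran from -0.54 to 0.11 for *Alas2* (0.23 on *Hba-x* alone) and from -0.0336 to 0.14 for *Alad*. Genes called in Tie2-Ezh2-KO went from 386 to 230 above 1 RPKM in at least 5 libraries and to 187 with the corresponding WT. In Vav-Ezh2-KO 1 became 0 with limma-voom and 2 with the corresponding WT, and also 2 without Tie2-Ezh2-WT 10, Tie2-Ezh2-WT 12 or Vav-Ezh2-WT 4. The difference of effects went from 26 to 16 with no filter, 12 with the stricter filter, 12 after quantile normalization, 16 after median scaling, 2 with limma-voom, 630 compared directly and 8 to 32 with a library left out. The share of its called genes that were higher was 88.5%, and 75.0% after quantile normalization. No paired analysis was possible because the groups share at most 1 replicate number and each library is a different embryo. The cause of these shifts was not tested.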
